A study of Mus musculus with 2 samples.

Results

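Cytosines outside CpG that lie directly after a CpG were examined in the dentate gyrus of adult mice. Such a site is the last base of the run C-G-C, so that its own CpG cytosine lies 2 bases before it on the same strand. CpH denotes a cytosine followed by A, C or T (H), and is split by the base after that into CHG and CHH. Sites were taken from replicate 2, from the 19 autosomes, with 20 to 100 reads for CHG and 30 to 100 reads for CHH. A CpG had to be listed 2 bases before, and the base after the cytosine had to be in no table of that library. That last condition leaves mainly CA and CT dinucleotides (for CHG, C-G-C-A-G or C-G-C-T-G), although a cytosine with too few reads to be listed can also stand there. Of 27607362 listed cytosines in both libraries, 27435342 of them in replicate 2, 121510 met the rule. They comprised 101825 CHG and 19685 CHH sites, called post-CpG sites here. Methylation did not enter the choice.

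The study measured DNA methylation by whole-genome bisulfite sequencing in 2 libraries of 1 group. Both came from dentate gyrus dissected on both sides from male C57Black6 mice (C57BL/6 background) labelled WT, 8 to 10 weeks old, for which the labels name no treatment. The labels do not say how many animals gave each library, and the series' text calls the libraries biological replicates. The dentate gyrus holds granule neurons among other cells, so a level is an average over cell types, and no marker of a cell type can be read from these tables. The tables of replicate 2 held 451032782 read calls at CHG, 262299782 at CHH and 77868153 at CpG. Post-CpG CHG sites carried 2435706 of these calls and post-CpG CHH sites 656995. Replicate 1 listed so few cytosines that only 233 CHG and 435 CHH sites met the rule there.

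In mammals most DNA methylation sits at CpG, where the pattern is copied to the new strand at each cell division by the maintenance enzyme DNMT1. Methylation of CpH is rare in most tissues but accumulates in neurons after birth. It is written by DNMT3A and favours the dinucleotide CA and above all the trinucleotide CAC. A CpH site next to a CpG puts both kinds of methylation on the same few bases and, in these data, on nearly the same reads. The depth of the post-CpG site and that of its CpG differed by at most 2 reads at 95.6% of CHG and 91.2% of CHH sites.

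Post-CpG sites were methylated in about 1% of reads, above the level on mitochondrial DNA. Bisulfite sequencing reads 5-methylcytosine and 5-hydroxymethylcytosine alike, so a methylated read is either. The level, methylated reads over all reads, was 0.784% at post-CpG CHG sites (exact Clopper-Pearson 95% interval 0.773% to 0.796%) and 1.18% at post-CpG CHH sites (1.15% to 1.21%). These intervals cover counting error alone, since copies made by PCR carry no molecular identifier here and cannot be told from separate molecules. Mitochondrial DNA, taken here as little methylated, gave the background at sites of the same class. Its 5 CHG sites of this class were at 0.208%, 0.327%, 0.451%, 0.460% and 0.481%, with 7959 to 11084 reads each. Its 28 CHH sites ranged from 0.202% to 2.78% with a median of 0.426%, and the highest was the site with the fewest reads (72). Pooled, the background was 0.397% for CHG (0.342% to 0.458%) and 0.444% for CHH (0.417% to 0.471%). Post-CpG sites were thus 1.98 times the background for CHG and 2.66 times for CHH, and sites without CpG nearby were 1.98 and 2.31 times the same background. Fisher's exact test on the summed reads gave adjusted p = 3.39e-25 and 1.81e-251. It takes reads as independent and describes this library.

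The methylated reads were spread thinly over the sites. At post-CpG CHG sites, 89.3% had no methylated read, 5.96% had 1, 3.27% had 2 and 1.49% had 3 or more. At post-CpG CHH sites these shares were 83.2%, 7.41%, 5.15% and 4.26%. The thin spread was not particular to post-CpG sites. With no listed CpG within 20 bases, 89.8% of CHG and 85.2% of CHH sites had no methylated read. Of those sites, 1.57% (CHG) and 3.54% (CHH) had 3 or more. The few post-CpG sites with 3 or more methylated reads carried 33.4% of all methylated reads of the CHG class and 55.0% of those of the CHH class. No post-CpG site reached 80%, and 5 CHG and 15 CHH sites reached 50%. Sites without CpG at these levels were not counted, so these numbers have no comparison.

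The CpG cytosines before these sites were mostly methylated. Their level was 81.2% before CHG and 85.3% before CHH sites, against 79.0% over all 2870859 listed autosomal CpG of at most 100 reads. The median CpG was at 90.9% before CHG sites and at 93.5% before CHH sites. CpG levels of at least 80% stood before 71.9% of the CHG and 79.2% of the CHH sites, and levels under 20% before 5.37% and 2.94%. CHH sites had a higher depth minimum than CHG sites, so the CpG levels of these classes are not at matched depth.

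The first comparison asked whether a CpH site directly after a CpG differs from one with no CpG nearby. For CHG it did not differ detectably. The level was 0.784% directly after a CpG and 0.785% at 14581042 CHG sites with no listed CpG within 20 bases on either side, a difference of -0.00032 percentage points (95% interval over sites -0.018 to 0.017). For CHH the post-CpG sites were higher, 1.18% against 1.03% at 4013406 sites without CpG, a difference of 0.154 points (0.101 to 0.207). A quasi-binomial logistic model over sites, with autosome as a factor, gave an odds ratio of 0.999 (0.976 to 1.02, adjusted p = 0.931) for CHG and 1.15 (1.10 to 1.21, adjusted p = 3.04e-09) for CHH. These and the other planned p-values were adjusted over 10 tests. The units of this model are sites of 1 library, so its p-values do not speak of animals. Sites without a listed CpG can have one of fewer than 20 reads nearby.

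At matched depth, 30 to 100 reads in both contexts, post-CpG CHG sites were at 0.801% and CHG sites without CpG at 0.786%. The excess of post-CpG sites was then 0.139 points larger for CHH than for CHG (0.061 to 0.216, interaction in the quasi-binomial model, adjusted p = 0.011). This interaction did not take the third base of the CHH context into account, which is treated below. Without an upper depth limit the interaction did not pass in that quasi-binomial model (0.0584 points, adjusted p = 0.36), and the CHH difference itself was 0.070 points.

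The CHH difference had the same sign on most autosomes, whereas the CHG difference had no steady sign. Over the 19 autosomes the level of post-CpG CHG sites had a mean of 0.783% ± 0.035 (SD over autosomes) and ranged from 0.733% on chromosome 19 to 0.857% on chromosome 4. Post-CpG CHG sites were above CHG sites without CpG on 9 of 19 autosomes. For CHH the mean was 1.18% ± 0.107, from 1.03% on chromosome 4 to 1.40% on chromosome 18, and post-CpG sites were above sites without CpG on 17 of 19 autosomes. The exceptions were chromosomes 11 and 19, with 802 and 467 post-CpG CHH sites, where the differences were -0.0405 and -0.0178 points.

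**Figure D1:**
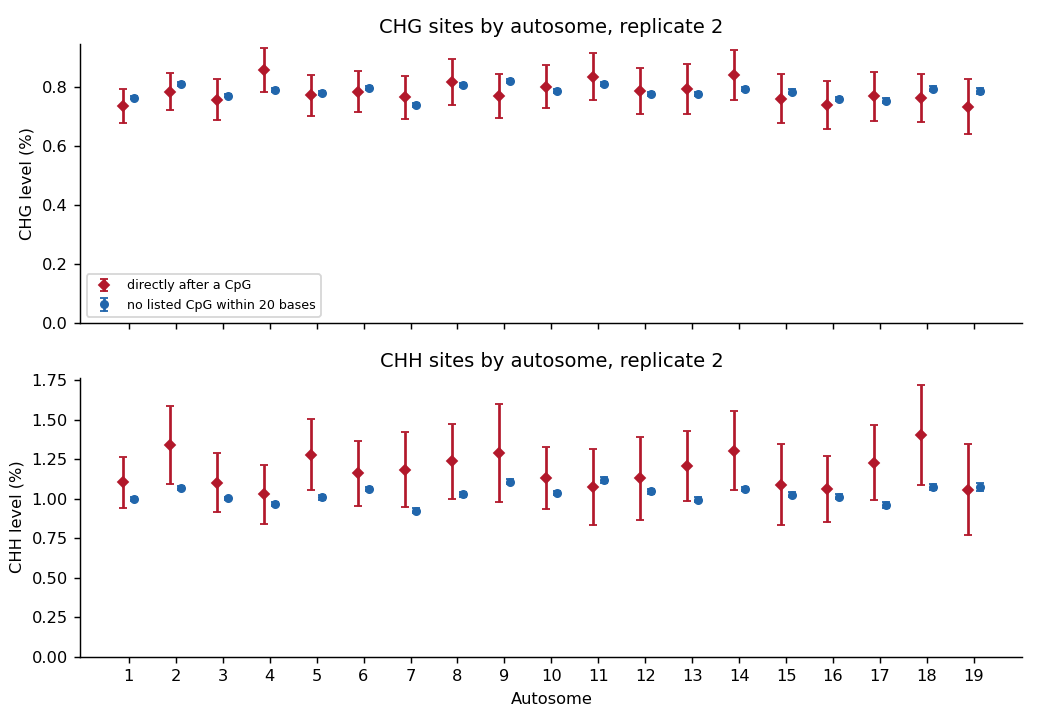
Levels (percent of reads methylated) of CHG sites (top) and CHH sites (bottom) by autosome in replicate 2. Diamonds are sites directly after a CpG, circles are sites with no listed CpG within 20 bases, and bars are 95% intervals over sites. CHG diamonds lie on both sides of the circles, whereas CHH diamonds are above the circles on 17 of 19 autosomes.

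The position directly after the CpG was then set against other positions near a CpG, taking sites by the place of their nearest listed CpG. One position stood out just beyond it. When the nearest CpG lay 3 bases before, the level was 0.550% (0.541% to 0.560%) for CHG and 0.729% (0.709% to 0.749%) for CHH, which placed it lowest of 37 offsets for CHG and of 38 for CHH. Post-CpG sites themselves ranked 33rd of 37 from the highest for CHG and 6th of 38 for CHH. The highest levels were at sites with the nearest CpG after them, 1.13% for CHG (4 bases after) and 1.64% for CHH (5 bases after). The post-CpG position was above the position 3 bases after a CpG by 0.234 points for CHG (0.212 to 0.257; quasi-binomial model with the CpG level as covariate, adjusted p = 2.14e-80) and by 0.450 points for CHH (0.383 to 0.518, adjusted p = 6.46e-39). This comparison was chosen after its values were seen.

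From 4 to 20 bases before, levels ran from 0.766% to 0.872% for CHG. Of these 17 offsets, 14 were above the post-CpG CHG level of 0.784%. For CHH they ran from 0.986% to 1.18%, and none was above the 1.182% of the 19350 post-CpG CHH sites whose nearest listed CpG was the one before them, although the highest, at 14 bases, was at 1.181%. Taken as one class, sites with the nearest CpG 3 to 20 bases before were at 0.809% for CHG (1495729 sites) and 1.07% for CHH (371759 sites). At a given CpG level in the quasi-binomial model the post-CpG CHG sites were lower, with an odds ratio of 0.952 (0.929 to 0.975, adjusted p = 6.47e-05) and a raw difference of -0.025 points. In the same quasi-binomial model the post-CpG CHH sites were higher, with an odds ratio of 1.06 (1.01 to 1.11, adjusted p = 0.011) and a raw difference of 0.105 points. The CHH call was lost in other quasi-binomial fits: with the third base as a covariate the odds ratio was 1.03 (adjusted p = 0.165), and without the position 3 bases after a CpG it was 1.04 (adjusted p = 0.0958). The CHG call was lost at 30 to 100 reads (odds ratio 0.956, quasi-binomial model, adjusted p = 0.271).

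**Figure D2:**
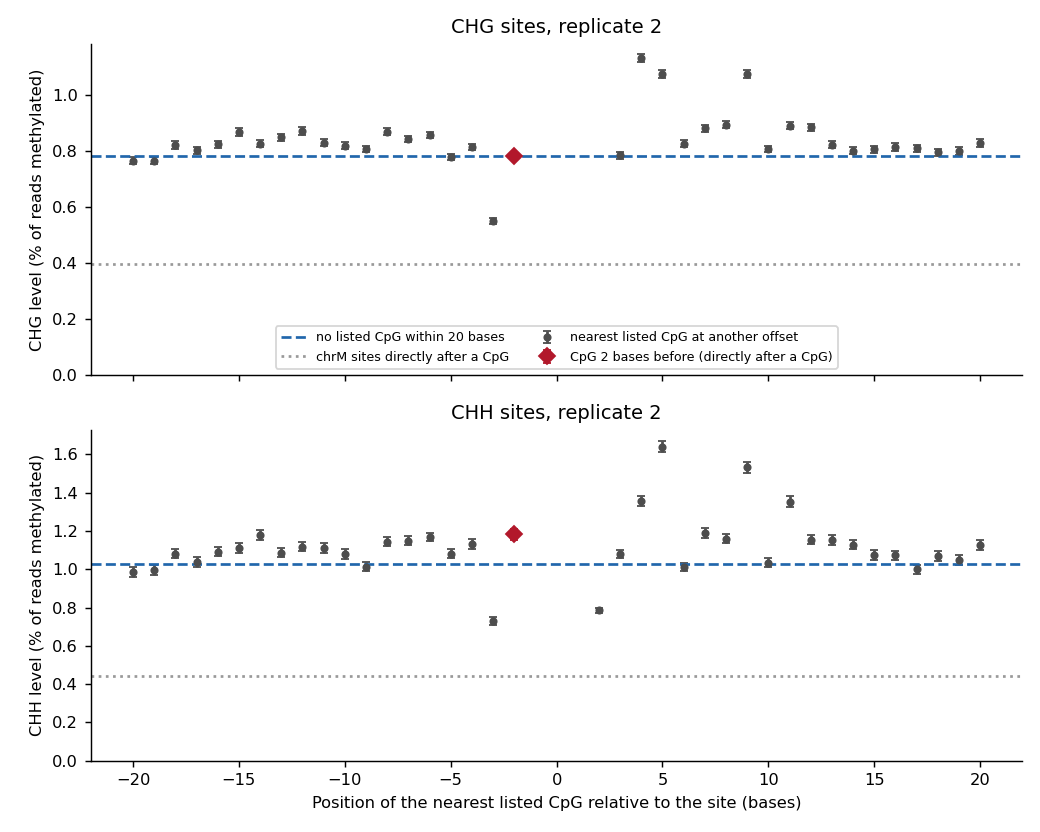
Levels (percent of reads methylated) of CHG (top) and CHH (bottom) sites in replicate 2 by the position of the nearest listed CpG, from 20 bases before (negative) to 20 bases after the site, with exact 95% intervals. The red diamond is the position directly after a CpG (0.784% and 1.18%), the dashed line is the level of sites without a listed CpG within 20 bases, and the dotted line is the mitochondrial level of the same class. The lowest point in both panels is a CpG 3 bases before (0.550% and 0.729%).

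Among post-CpG sites the CpH level followed the level of their own CpG. For CHG it rose in every step: 0.447% where the CpG was methylated in under 20% of reads (5472 sites), 0.573% at 20 to 40%, 0.625% at 40 to 60%, 0.718% at 60 to 80% and 0.846% at 80% or more (73227 sites). Where the CpG had no methylated read at all, the post-CpG CHG level was 0.342% (0.293% to 0.397%, 2192 sites), an interval that overlaps the mitochondrial one. Where every CpG read was methylated it was 0.893% (0.870% to 0.916%, 26976 sites). The odds of methylation at the CHG site were 2.07 times as high (1.87 to 2.29) at a fully methylated CpG than at an unmethylated one in the quasi-binomial trend (adjusted p = 2.75e-43). Sites with a CpG of at least 80% exceeded those with a CpG under 20% by 0.399 points (0.344 to 0.454), and did so on 18 of 19 autosomes, the exception being chromosome 19.

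For post-CpG CHH sites the steps were 0.645% (578 sites), 0.697%, 1.03%, 1.17% and 1.23% (15594 sites). The difference between the highest and lowest class was 0.584 points (0.402 to 0.766), with an odds ratio of 2.10 over the range of CpG levels (1.63 to 2.71, quasi-binomial trend, adjusted p = 1.52e-08). It was positive on 17 of 19 autosomes. The exceptions were chromosomes 17 and 19, which had 23 and 18 post-CpG CHH sites with a CpG under 20%. In that lowest class the exact interval of the CHH level (0.538% to 0.765%) was above the mitochondrial one of 0.417% to 0.471%. Both cover counting error alone. The standard error over the 578 sites was 0.0875 points, and the difference from mitochondrial DNA was not tested. Where the CpG had no methylated read the CHH level was 0.567% (0.380% to 0.813%, 154 sites), an interval that overlaps the mitochondrial one. Since the CpG and the CpH site were read on nearly the same reads, their levels are not independent measurements, and the part of shared reads in the relation was not tested.

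The same relation held at other positions near a CpG. Sites with the nearest CpG 3 to 20 bases before rose from 0.483% to 0.872% (CHG) and from 0.585% to 1.16% (CHH) between the lowest and the highest CpG class. Their odds ratios over the range of CpG levels were 1.85 (1.80 to 1.90) and 2.08 (1.97 to 2.21). In the quasi-binomial model the slope directly after the CpG was not detectably different from theirs, with a ratio of odds ratios of 1.12 for CHG (0.998 to 1.25, adjusted p = 0.064) and 1.01 for CHH (0.774 to 1.31, adjusted p = 0.967). These interactions belong to a second family of 7 tests, added after the data were seen and adjusted together.

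**Figure D3:**
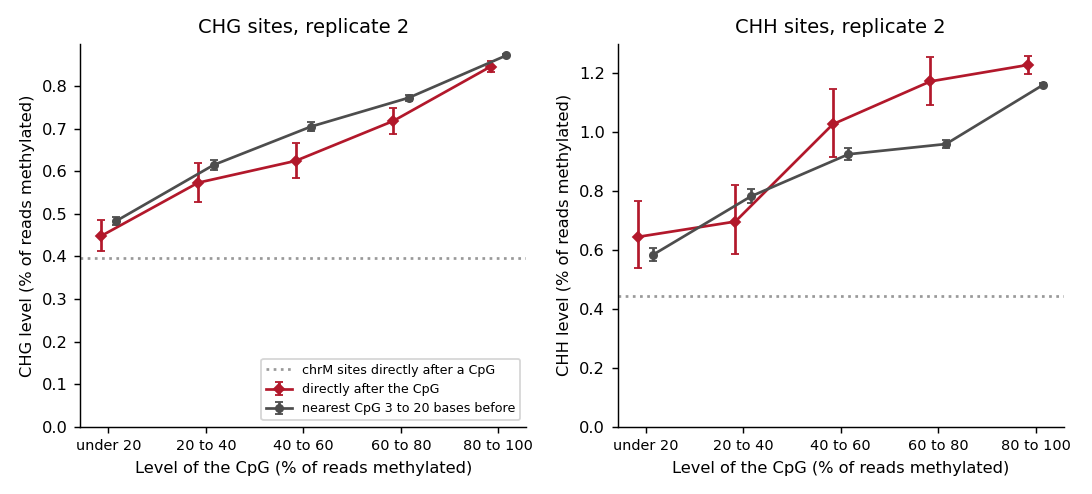
CHG (left) and CHH (right) levels, in percent of reads methylated, by the level of the CpG in replicate 2, with exact 95% intervals. Red diamonds are sites directly after the CpG, grey circles are sites with the nearest CpG 3 to 20 bases before, and the dotted line is the mitochondrial level of the same class. Post-CpG levels rise from 0.447% to 0.846% for CHG and from 0.645% to 1.23% for CHH.

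The third base of the CHH context made the largest difference among post-CpG sites in the classes compared here. CHH sites with a listed cytosine as the third base (C-G-C-H-C, 24.7% of post-CpG CHH sites) were at 2.24% (2.17% to 2.31%), against 0.827% (0.802% to 0.853%) where the third base was in no table. The difference of 1.41 points (1.24 to 1.57) had an odds ratio of 2.75 (2.52 to 2.99, quasi-binomial model, adjusted p = 1.59e-116), and the order was the same on 19 of 19 autosomes. Since CHH sites under 30 reads and other sites under 20 were not listed, the second class also holds some sites with a cytosine there. On mitochondrial DNA the same classes were at 0.476% (9 sites) and 0.429% (19 sites). By the kind of the third base, the level was 2.62% where that cytosine was itself CHH (3311 sites), 1.52% where it was CHG (1212 sites) and 1.06% where it was a CpG (335 sites).

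The difference between post-CpG CHH sites and CHH sites without CpG was smaller once the share with a listed third-base cytosine was matched. A listed cytosine was the third base at 19.7% of the sites without CpG, which were then at 2.10%, and at 0.759% otherwise. Both values lie below those of the post-CpG sites. With the third-base shares of the post-CpG sites applied to the sites without CpG, the difference was 0.0857 points in place of 0.154 (odds ratio 1.08 with the third base in the quasi-binomial model, adjusted p = 0.0008). The kind of that cytosine was not matched. It was a CpG at 335 post-CpG sites, themselves at 1.06%, a kind that the definition of sites without CpG excludes. Apart from those, post-CpG sites with a listed third-base cytosine were at 2.33% (4523 sites).

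The third-base difference varied with the level of the CpG. Where the CpG was under 20% methylated, post-CpG CHH sites with and without a listed third-base cytosine were both at 0.644% to 0.645% (156 and 422 sites). At 20 to 40% they were at 1.04% and 0.597%, at 40 to 60% at 1.90% and 0.714%, at 60 to 80% at 1.87% and 0.941%, and at 80% or more at 2.42% and 0.835%. The class with a listed third-base cytosine thus rose with the CpG level by more than the other, with a ratio of odds ratios of 2.20 (1.35 to 3.59, interaction in the quasi-binomial model, adjusted p = 0.00214, a test added after the data were seen). At positions 3 to 20 bases after a CpG the classes were at 0.838% and 0.505% in the lowest CpG class, and at 2.30% and 0.832% in the highest.

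**Figure D4:**
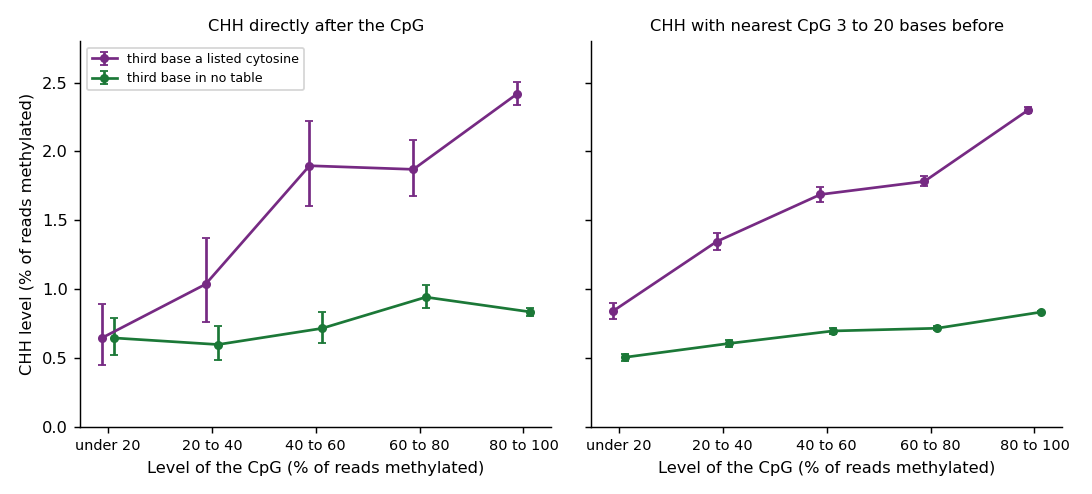
CHH levels (percent of reads methylated) by the level of the CpG in replicate 2, for sites directly after the CpG (left) and for sites with the nearest CpG 3 to 20 bases before (right), with exact 95% intervals. Purple points have a listed cytosine as the third base and green points have none listed. On the left the points meet in the lowest CpG class (0.644% and 0.645%) and separate to 2.42% and 0.835% in the highest.

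Post-CpG sites also followed the methylation of the region around them. The local level was taken from sites without CpG in the same 100 kb bin, which share no site with the post-CpG class, in bins with at least 20 such sites. By quintiles of local CHG level, post-CpG CHG sites were at 0.608%, 0.675%, 0.755%, 0.824% and 1.06%, while the local level itself was at 0.493%, 0.656%, 0.774%, 0.921% and 1.27%. For CHH the post-CpG levels were 0.800%, 1.01%, 1.04%, 1.31% and 1.75%, against local levels of 0.496%, 0.773%, 0.982%, 1.26% and 2.03%. The local level rested on a median of 623 CHG and 151 CHH sites per bin. The odds at a post-CpG site rose 1.55 times for CHG and 1.50 times for CHH with each doubling of the local odds (quasi-binomial model, adjusted p = 6.57e-83 and 2.03e-38, second family). With the local level as a covariate, the odds ratios over the range of CpG levels were 2.03 for CHG (2.07 without it) and 1.90 for CHH (2.10 without it). In the lowest CHH quintile the order was reversed. Sites with a CpG of at least 80% were at 0.827% there, and those with a CpG under 20% at 0.988% (113 sites). In the other CHH quintiles and in every CHG quintile the class with the higher CpG level was higher. Single quintiles were not tested.

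Set against sites without CpG of the same bins, post-CpG CHG sites were lower. Their level of 0.784% compared with a local level of 0.822%, a difference of -0.038 points (-0.055 to -0.021, n = 101821 sites, normal test on the spread over sites, adjusted p = 2.26e-05), whereas the genome-wide difference was not detectable. Post-CpG CHH sites were higher than their local level, 1.17% against 1.10%, by 0.075 points (0.022 to 0.128, n = 19522 sites, same test, adjusted p = 0.00782). This comparison was added after the data were seen.

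**Figure D5:**
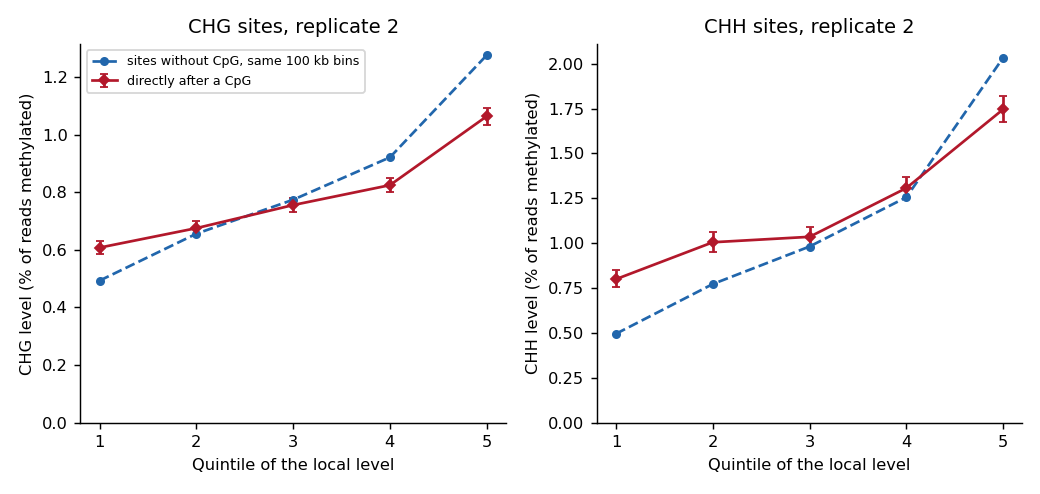
Levels (percent of reads methylated) of post-CpG CHG sites (left) and CHH sites (right) in replicate 2, by quintile of the level of sites without CpG in the same 100 kb bin. Red diamonds with exact 95% intervals are post-CpG sites and blue circles are the local level. Post-CpG levels rise from 0.608% to 1.06% for CHG and from 0.800% to 1.75% for CHH. The quintiles were cut on the local level itself, so its range cannot be compared with that of the post-CpG sites.

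Levels were also read by the number of other CpG nearby. Of post-CpG CHG sites, 74.4% had no other listed CpG within 20 bases and were at 0.781%, 20.3% had 1 and were at 0.794%, and 5.26% had 2 or more and were at 0.799%. The intervals of these levels overlap. For CHH the levels were 1.15% (1.12% to 1.18%), 1.25% (1.19% to 1.31%) and 1.36% (1.25% to 1.49%), while the mean level of the CpG before the site was 86.2%, 84.8% and 81.1%. These steps were not tested. Only 2541 post-CpG sites (2.09%) had another post-CpG site within 20 bases. Sites farther apart can also share reads, which was not counted.

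Levels varied with depth. Post-CpG CHG sites just inside the minimum, at 20 to 22 reads, were at 0.744%, against 0.782% for sites without CpG of the same depth. At 30 to 39 reads the values were 0.806% and 0.797%, at 40 to 49 reads 0.863% (416 sites) and 0.750%, and at 50 to 100 reads 0.603% (182 sites) and 0.530%. Post-CpG CHH sites were at 1.22% with 30 to 32 reads, 1.20% with 30 to 39, 1.10% with 40 to 49 and 0.766% with 50 to 100 (368 sites), against 1.04%, 1.04%, 0.971% and 0.680% without CpG. Near the upper limit, post-CpG CHG sites were at 0.852% with 91 to 100 reads (11 sites) and 0.0794% above 100 and up to 110 reads (12 sites), and CHH sites at 1.04% (24 sites) and 1.45% (19 sites).

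Single methylated post-CpG sites were called by a one-sided exact binomial test against the mitochondrial CpH rate of 0.368%, adjusted over all nuclear sites of the table at 0.01. The test called 1412 of 101825 post-CpG CHG sites, or 1.39% (1.32% to 1.46%), against 1.46% of all nuclear CHG sites and 1.55% of those 3 to 20 bases after a CpG. It called 785 of 19685 post-CpG CHH sites, or 3.99% (3.72% to 4.27%), against 2.75% of all nuclear CHH sites, 3.28% of CHH sites without CpG and 3.53% of those 3 to 20 bases after a CpG. The CHG share lies near the background, and the CHH share above each of these. The shares over all nuclear sites include sites with a listed next base, which the rule leaves out. With no condition on the next base, 840 of 26437 post-CpG CHH sites were called. With a listed third-base cytosine 8.46% of post-CpG CHH sites were called, and 2.52% otherwise. Those shares were 7.86% and 2.16% among CHH sites without CpG. A call needed at least 3 methylated reads. Called sites had a median level of 16.0% for CHG and 13.3% for CHH, and 95% was the median level of the CpG before them in both contexts.

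Calls became more frequent with the level of the CpG. The share of post-CpG CHG sites called was 0.457% (25 sites) below a CpG level of 20%, then 0.844%, 1.03%, 1.24% and 1.54% (1130 sites) at 80% or more. For CHH the shares were 1.38% (8 sites), 1.83%, 3.07%, 3.94% and 4.23% (659 sites). The rise was not particular to post-CpG sites. Between the lowest and highest CpG class, shares at sites 3 to 20 bases after a CpG went from 0.645% to 1.74% for CHG. For CHH they went from 1.37% to 3.88%. Sites that were not called were still above the mitochondrial level, at 0.543% for CHG and 0.578% for CHH.

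The sites with the lowest p were methylated in up to 73.0% of reads. Positions are those of the deposited tables (mm9), and genes there were not identified. Position 33342220 of chromosome 9, a CHH cytosine, had 27 of 37 reads methylated (73.0%, 55.9% to 86.2%; exact binomial test, adjusted p = 9.77e-54) and its CpG had 37 of 37. The other 4 CHH sites with the lowest p were position 179809777 of chromosome 2 (25 of 49 reads), 17937218 of chromosome 2 (23 of 36), 9293475 of chromosome 12 (22 of 36) and 117563371 of chromosome 8 (21 of 31). Their CpG were at 60.4%, 100%, 100% and 100%. Among CHG sites the lowest p were at position 117845259 of chromosome 13 (21 of 41 reads; exact binomial test, adjusted p = 1.26e-35), 114868703 of chromosome 13 (19 of 28), 11649204 of chromosome 14 (16 of 31), 86558278 of chromosome 3 (13 of 22) and 42509006 of chromosome 15 (11 of 22). Their CpG were at 92.9%, 53.3%, 100%, 95.5% and 65.2%. At the second of these the CHG cytosine had 67.9% of reads methylated and the CpG before it 53.3%.

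A few called sites followed a mostly unmethylated CpG. Among post-CpG sites with a CpG under 20%, 25 CHG and 8 CHH sites were called. The CHG site with the lowest p lay at position 107887241 of chromosome 6, with 7 of 31 reads methylated and 6 of 31 at its CpG. Next was position 118386853 of chromosome 9, with 6 of 20 reads against 2 of 20 at the CpG. The CHH sites were position 16227319 of chromosome 7 (6 of 30 reads, CpG 4 of 30) and position 80101514 of chromosome 9 (6 of 32, CpG 3 of 31). In these 4 sites the CpH cytosine had a higher point estimate than the CpG, on at most 7 methylated reads each. Choosing sites by lowest p and a CpG under 20% favours that order.

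Replicate 1 gave the same order of contexts on far fewer sites. Its 233 post-CpG CHG sites were at 0.954% (0.744% to 1.20%) and its 435 post-CpG CHH sites at 1.44% (1.25% to 1.66%), from 20 reads in both contexts, against mitochondrial levels of 0.436% and 0.323% in the same class. CHG sites without CpG were at 0.851% and CHH sites without CpG at 1.29%. The differences from sites without CpG were 0.103 points for CHG (-0.246 to 0.452) and 0.155 points for CHH (-0.427 to 0.737), neither past the test in the quasi-binomial model (adjusted p = 0.859 and 0.816). The interval for CHH is wide enough to hold both 0 and the value of replicate 2. At the same minimum of 20 reads, replicate 1 listed 39325 CHG sites in all, against 18322704 in replicate 2. Whether the sites deep enough to be listed in replicate 1 resemble other autosomal sites was not tested. The quasi-binomial trend over CpG levels was not past the test there, with an odds ratio of 0.429 for CHG (0.146 to 1.26, adjusted p = 0.331) and 0.524 for CHH (0.190 to 1.44, adjusted p = 0.424), both below 1. The highest and lowest CpG classes were at 0.632% and 0.676% for CHG (126 and 25 sites) and at 1.16% and 0.510% for CHH (268 and 54 sites), so that for CHH the classes and the trend differ in sign.

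Sites listed in both libraries with at most 100 reads numbered 115 for CHG and 134 for CHH. Their levels were 0.803% in replicate 2 and 1.22% in replicate 1 for CHG, and 1.88% and 2.99% for CHH. Across these sites Pearson's r between the libraries was 0.11 for CHG and 0.73 for CHH, as a description, since most sites were at 0 in both (82 and 84). The 5 deepest CHG sites were between 0% and 2.06% in replicate 2 and between 0% and 1.54% in replicate 1, and the 5 deepest CHH sites between 0% and 4.30% in replicate 2 and at 0% in replicate 1. Of the 11 CHH sites called in replicate 2, 6 had a methylated read in replicate 1 and 5 were called there. Together these 11 sites were at 18.3% in replicate 2 and 23.1% in replicate 1, against 0.928% in replicate 1 for the shared sites not called in replicate 2. One of them is among the strongest sites above, position 179809777 of chromosome 2, with 25 of 49 reads in replicate 2 and 6 of 29 in replicate 1. The CHH site at position 59750346 of chromosome 15 had 18 of 48 and 20 of 60 reads methylated, and was chosen for mention after its values were seen. Of the 3 CHG sites called in replicate 2, 1 was called in replicate 1, with 4 of 41 and 4 of 42 reads at position 25588798 of chromosome 17.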

How the data were processed

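Per the submitters' processing notes, the reads were handled with Bismark 0.7.5 on build mm9. The sources used here do not give trimming, removal of duplicates or strand handling. The deposited tables hold read counts per cytosine (methylated, unmethylated, total) for the strand class named OT, with the authors' percent of methylated reads, which matched the counts (0 rows differed). Unmethylated lambda DNA was added to each sample, per the labels' protocols, and its reads were not analysed here. The lowest total was 20 reads, or 30 for CHH in replicate 2. Median depth of post-CpG sites was 23 reads for CHG and 32 for CHH.

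Neighbouring bases were read from the listed positions, since no mm9 sequence was used. No listed CpG had a listed next base, and no listed CHG had a listed cytosine 2 bases on (0 sites each). Levels were read-weighted. Intervals of levels are exact (95%) and those of differences use the spread over sites. The quasi-binomial logistic model scaled its errors by Pearson's dispersion and was tested on simulated data, as was the binomial call. Adjustment was by Benjamini-Hochberg at 0.05 (0.01 for calls). Python 3.11.15, numpy 2.4.6 and scipy 1.17.1 were used.

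Sites, classes and tests were chosen with earlier results of these data known. Named sites were the 5 per context with the lowest p among called sites, the 2 per context with the lowest p and a CpG under 20%, and up to 5 per context by depth among sites shared with replicate 1. Alternatives changed depth limits, the next-base rule, the comparison sites, weighting, test, background and library.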

Additional observations from a re-analysis of the deposited data

Results flagged for a closer look

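A pair of site classes outside the comparisons had exact intervals above the mitochondrial one of their class. Such intervals cover counting error alone. On the X chromosome of replicate 2, which the rule left out, 200 CHG sites directly after a CpG were at 0.743% (95% interval 0.521% to 1.03%). On the autosomes, 173 CHH sites directly after a CpG with more than 100 reads were at 0.621% (0.551% to 0.697%), below the 1.18% of those with 30 to 100 reads. The spread over sites was wider, with standard errors of 0.267 points for the X chromosome CHG class and 0.0812 points for this CHH class. Neither difference from mitochondrial DNA was tested. The intervals of the other classes left out overlapped the mitochondrial one. The 57 CHH sites of this kind on the X chromosome were at 0.432% (0.207% to 0.793%), against 0.444% on mitochondrial DNA, and the 5 on the Y chromosome at 0% (0% to 1.49%). The 6 CHG sites on the Y chromosome were at 0.641% (0.0162% to 3.52%), and 81 autosomal CHG sites with more than 100 reads were at 0.524% (0.420% to 0.645%), against 0.397% on mitochondrial DNA.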

How the results depend on the processing

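Differences are in percentage points. The CHG difference from sites without CpG did not pass the test and changed sign with CHG sites from 30 reads (0.0155), with no listed CpG within 50 bases (0.00488), with the previous base unlisted (0.000892) and in replicate 1 (0.103). Within 100 kb bins it passed, at -0.038. The CHH difference kept its direction in all 12 alternatives. It passed in 9 of the 10 that gave a p, and was 0.155 without passing in replicate 1. Without an upper depth limit it was 0.070, and its interval over sites (-0.049 to 0.189) held 0 although the model passed, and with no condition on the next base it was 0.101. Against positions 3 to 20 bases after a CpG, CHG was -0.0152 without an upper depth limit (past the test in the model, with an interval over sites of -0.0358 to 0.00546 that holds 0), -0.0186 from 30 reads and -0.0583 in replicate 1, both no longer past the test, and 0.234 against position 3 alone. CHH there was 0.0839 against positions 4 to 20, not past the test, and -0.239 in replicate 1. With the third base as covariate the CHH odds ratio was 1.03, not past the test (quasi-binomial model, adjusted p = 0.165). The raw CHH difference of 0.105 does not take the third base into account. The excess of CHH over CHG was 0.0584 without an upper depth limit and 0.0523 in replicate 1. In replicate 1 the CpG classes differed by -0.0444 for CHG and 0.647 for CHH, and the third-base classes by 0.546. The CpG trends and the third-base comparison did not pass the test there. For the CHH class difference of 0.647 the interval over sites (0.0912 to 1.20) did not hold 0. The test was of the trend, whose odds ratio of 0.524 had the other direction. The CHH excess over mitochondria was 0.655 as a mean over sites, where the mitochondrial site of 72 reads weighs as much as the others. From 30 reads, 159 of 8659 post-CpG CHG sites were called, against 1412 of 101825 in the main setting. A background rate of 1% left 567 calls among 101825 (CHG) and 314 among 19685 (CHH). Replicate 1 gave 4 calls among 233 (CHG) and 15 among 435 (CHH). The number of sites changed from 30 reads and in replicate 1, so those counts cannot be read as lost calls. Shares called over all sites are not given for these settings. For each such change, the cause was not tested. Fisher's exact test in place of the model was not run for the excess of CHH over CHG. Leaving out a replicate was not run as such, since the sites come from 1 library. No paired analysis was possible because there is only 1 group. Depth limited single sites: fewer than 3 methylated reads gave no call.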
